A study of Mus musculus with 3 samples.

Results

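Meiotic recombination hotspots that the CAST form of PRDM9 activates and that also lie on H3K4me3 placed without PRDM9 were described here. From the deposited table of DMC1 hotspots, every autosomal site was taken whose activating PRDM9 allele was given as CAST and whose overlap with a PRDM9-independent H3K4me3 peak was marked. This gave 964 of 24586 sites in the table, or 7.79% of the 12372 autosomal CAST-allele sites (exact Clopper-Pearson 95% interval 7.33% to 8.28%), against an overlap of 8.68% over all 23631 autosomal sites. They are called on-peak sites below, and the other 11408 autosomal CAST-allele sites off-peak sites. For HUM, the humanized Prdm9 allele, 676 autosomal sites were on-peak and 8605 off-peak, and 362 on-peak sites had the allele class UNK, which the file headers do not define.

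All sites came from F1 males of a cross between the inbred strains C57BL/6J (B6) and CAST/Eij (CAST), with the Prdm9 genotype HUM/CAST. The animals behind every group of sites thus carried both Prdm9 alleles. DMC1 ChIP-seq, which recovers single-stranded DNA coated by the recombinase DMC1 at breaks under repair, was made from whole testis of 1 male aged 10 weeks. The series' H3K4me3 ChIP-seq library came from whole testis of an adult male, but the file headers credit the raw data behind the deposited H3K4me3 values to Li and colleagues without saying whether it is that library. There was 1 library of each kind, so no difference has a replicate check, sites are not replicates, and no p-value was computed. Medians are given with quartiles over sites, and the sign of a difference was also read on each of the 19 autosomes alone. Exact intervals on shares cover counting error over sites only, and the reads behind a signal or a share are unknown.

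PRDM9 is a meiotic zinc-finger protein that binds DNA motifs and trimethylates lysine 4 of histone H3 on the nucleosomes beside them, and the SPO11 complex breaks the DNA there. Other methyltransferases place the same mark at promoters, enhancers and CpG-rich DNA, in many cell types and without PRDM9, and in mice that lack PRDM9 breaks are known to form at such places. PRDM9 of CAST and PRDM9 of the humanized allele bind different motifs, and where B6 and CAST DNA differ in a motif, one homologue can be bound and the other not.

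In 7 on-peak sites the centre of the DMC1 peak lay inside the promoter window of a protein-coding gene, the 250 bases before and 50 bases from its start on. The 5 with the most DMC1 are printed to show the DNA in which a break centre and a gene start coincide. The sequences are those of RefSeq for GRCm38.p6 (the build of mm10, which the files use), 5′ to 3′ along the gene, with each CG in capitals.
Dglucy, chr12:100778807-100779106, plus strand: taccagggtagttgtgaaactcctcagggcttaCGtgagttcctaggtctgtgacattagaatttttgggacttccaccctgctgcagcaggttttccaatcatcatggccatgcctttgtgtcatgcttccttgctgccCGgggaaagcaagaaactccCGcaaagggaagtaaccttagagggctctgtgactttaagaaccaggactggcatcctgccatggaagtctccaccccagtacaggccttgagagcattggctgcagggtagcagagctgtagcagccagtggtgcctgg
Slc39a2, chr14:51893360-51893659, plus strand: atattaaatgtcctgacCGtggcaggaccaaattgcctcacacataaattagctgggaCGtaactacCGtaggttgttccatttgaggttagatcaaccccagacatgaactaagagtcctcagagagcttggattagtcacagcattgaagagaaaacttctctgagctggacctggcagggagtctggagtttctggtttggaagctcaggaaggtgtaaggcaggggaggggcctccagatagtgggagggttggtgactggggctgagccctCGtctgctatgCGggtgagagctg
Spx, chr6:142413181-142413480, plus strand: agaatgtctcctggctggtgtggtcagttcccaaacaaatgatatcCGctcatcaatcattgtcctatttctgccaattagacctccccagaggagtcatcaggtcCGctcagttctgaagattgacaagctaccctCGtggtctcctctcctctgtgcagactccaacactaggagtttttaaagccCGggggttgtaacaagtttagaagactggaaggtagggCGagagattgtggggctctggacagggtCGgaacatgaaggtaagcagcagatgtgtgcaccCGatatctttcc
Slamf9, chr1:172475110-172475409, plus strand: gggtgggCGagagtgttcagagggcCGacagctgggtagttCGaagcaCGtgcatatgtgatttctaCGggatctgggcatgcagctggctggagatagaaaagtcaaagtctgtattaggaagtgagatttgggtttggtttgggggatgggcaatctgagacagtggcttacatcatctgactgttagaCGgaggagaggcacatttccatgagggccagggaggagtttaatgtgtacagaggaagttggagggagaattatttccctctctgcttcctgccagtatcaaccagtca
Erich3, chr3:154710883-154711182, plus strand: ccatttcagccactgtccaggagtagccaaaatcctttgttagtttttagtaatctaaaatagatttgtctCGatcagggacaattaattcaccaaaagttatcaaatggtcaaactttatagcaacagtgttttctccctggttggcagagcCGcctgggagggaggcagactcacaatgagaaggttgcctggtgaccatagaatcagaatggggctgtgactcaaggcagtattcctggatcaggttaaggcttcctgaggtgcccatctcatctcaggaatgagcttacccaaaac

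The break centre was at base 263 of the window of Dglucy, which encodes D-glutamate cyclase, 12 bases downstream of the start, with a DMC1 signal of 351 and an H3K4me3 signal of 39.4 (both in the authors' units). In Slc39a2, a zinc transporter gene, it was at base 245, and in Spx, which encodes the neuropeptide spexin, at base 282. These sites had DMC1 of 203 and 135 and H3K4me3 of 20.4 and 17.9. In Slamf9, a receptor gene of immune cells, the centre was at base 185, with DMC1 122 and H3K4me3 21.7. In Erich3 it was at base 238, and this site had the most H3K4me3 (123) and the least DMC1 (48.5) of the 5. The windows held 3 CG in Dglucy, 5 in Slc39a2, 7 in Spx, 6 in Slamf9 and 2 in Erich3. The median over all 20085 tabled autosomal windows was 14, so each of these 5 was under it. The other 2 sites of this kind were weaker and lay 164 bases upstream of a start of Smim22 (DMC1 33.2, H3K4me3 11.6) and 187 bases upstream of Tssk2, which encodes a serine kinase of spermatids (DMC1 25.2, H3K4me3 179).

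On-peak sites had more H3K4me3 than off-peak sites, while their DMC1 was slightly lower, with a sign that changed between autosomes. The median DMC1 signal was 73.1 at on-peak sites (quartiles 31.2 and 201) and 83.4 at off-peak sites (32.2 and 220). The difference of -0.19 on the log2 scale was negative on 10 of 19 autosomes (SD over single autosomes 0.40). It was -1.22 on chromosome 16 and 0.56 on chromosome 18. That SD is the spread of single autosomes and not the error of the pooled difference. With each autosome left out in turn the pooled difference was -0.21 to -0.12. Among the 604 on-peak sites whose H3K4me3 value occurs once in the table the DMC1 difference was -0.89. The median H3K4me3 signal was 25.5 at on-peak sites (quartiles 14.7 and 41.5) and 12.5 at off-peak sites (6.38 and 23.9). That difference was 1.03 (SD over autosomes 0.23), or 2.04-fold, and was positive on 19 of 19 autosomes, between 0.52 on chromosome 7 and 1.55 on chromosome 19. The overlap that chose the sites is itself an overlap with H3K4me3, so this difference describes the choice and tests nothing. The deposited signal does not separate H3K4me3 placed by PRDM9 from the rest, and the part of it that comes from cells outside meiosis was not measured.

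A further measure was DMC1 divided by H3K4me3, which was compared only between sites because both are in the authors' units. Its median was 3.73 at on-peak sites (quartiles 1.56 and 7.23) and 7.15 at off-peak sites (4.39 and 11.7), a log2 difference of -0.94 (SD over autosomes 0.40) with the same sign on 19 of 19 autosomes. At HUM sites the median ratio was 2.30 on-peak and 5.65 off-peak, a difference of -1.30, and at on-peak UNK sites it was 1.44. The lowest 10.0% of all autosomal ratios, those up to 2.10, held 31.7% of on-peak CAST sites (306 of 964, exact interval 28.8% to 34.8%) and 5.25% of off-peak CAST sites (4.85% to 5.68%). Whether the CAST and HUM differences are unequal was not tested. The ratio holds the H3K4me3 by which the sites were chosen, so its difference in part describes that choice.

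**Figure D1:**
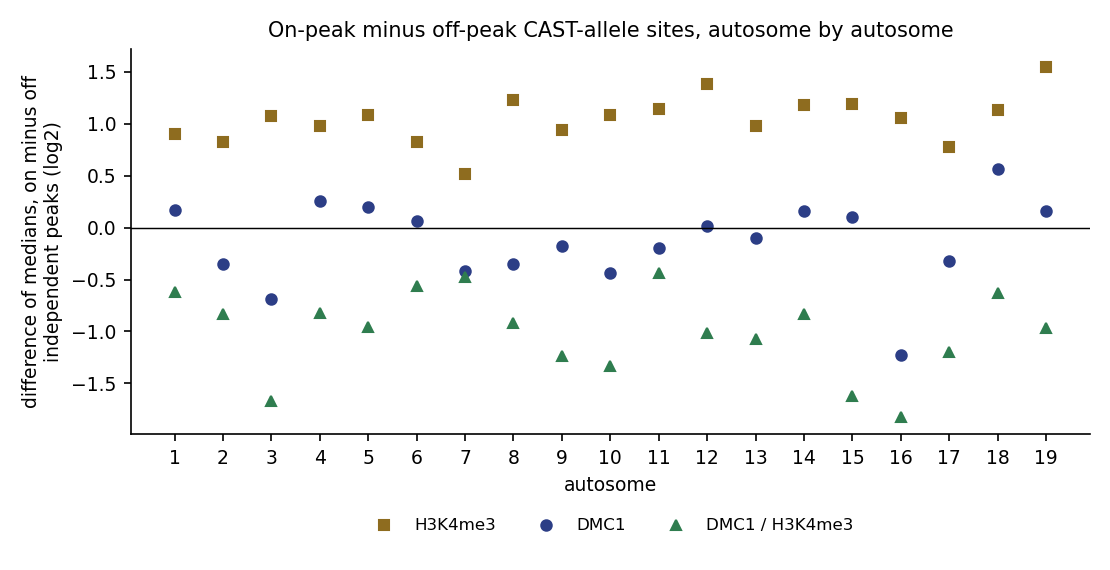
Difference of medians between on-peak and off-peak CAST-allele sites (log2, y axis) on each of the 19 autosomes (x axis), for H3K4me3 (squares), DMC1 (circles) and their ratio (triangles). H3K4me3 lies above 0 and the ratio below 0 on every autosome, while DMC1 lies on both sides, from -1.22 to 0.56.

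At equal H3K4me3 the on-peak sites had less DMC1. Within 20 bins of H3K4me3, the median DMC1 signal was lower by 1.07 on the log2 scale at on-peak sites (a difference of -1.07, or 2.10-fold less), with the same sign on 19 of 19 autosomes. The gap was not the same along the scale, cut into 10 equal classes of CAST sites by H3K4me3. In the class with least H3K4me3 the median DMC1 was 18.97 at 15 on-peak sites and 19.8 at 1223 off-peak sites, and in the next class it was 27.9 and 27.7. In the fifth class it was 43.2 at on-peak and 75.7 at off-peak sites, and in the ninth 149.9 and 304. In the class with most H3K4me3 it was 137 at 279 on-peak sites and 395 at 959 off-peak sites, a log2 difference of -1.52. This class is wide, and its on-peak sites also had the higher H3K4me3, with a median of 56.2 against 47.8. The medians of both kinds were thus close in the classes with least H3K4me3 and wide apart in those with most. The lowest classes hold few on-peak sites (15 and 25). Their DMC1 is also nearest to the smallest in the table (7.50), so a gap had less room there. The share of CAST sites that were on-peak went up over the same classes, at 1.21% in the first and 22.5% in the last. H3K4me3 peaks chose the sites, so this rise and the gap at equal H3K4me3 are not independent of the choice.

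**Figure D2:**
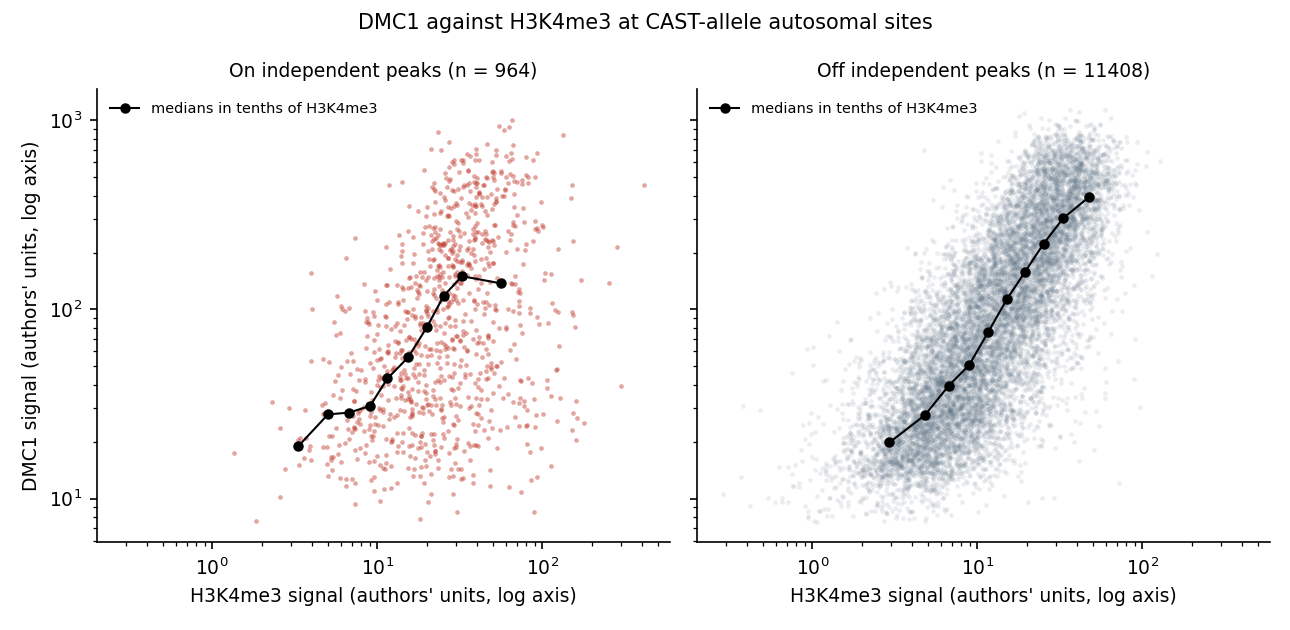
DMC1 signal (y axis) against H3K4me3 signal (x axis), both in the authors' units on log axes, for each of the 964 on-peak (left) and 11408 off-peak (right) CAST-allele autosomal sites, with medians in 10 equal classes of H3K4me3 in black. The off-peak medians climb to 395, while the on-peak medians end at 149.9 and 137.

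Across sites DMC1 followed H3K4me3 less closely on the peaks. The Spearman correlation was 0.407 over the 964 on-peak sites and 0.785 over the off-peak sites, as a description of sites that share 2 libraries. On single autosomes it was between 0.145 and 0.661 on-peak and between 0.756 and 0.821 off-peak, and on-peak was the lower on 19 of 19. At HUM sites it was 0.339 on-peak and 0.723 off-peak. H3K4me3 is again the mark whose peaks chose the sites, so this contrast is not independent of the choice either.

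Read the other way, at equal DMC1 the on-peak sites carried more H3K4me3, by 1.03 on the log2 scale in 20 bins of DMC1, on 19 of 19 autosomes. The sites were chosen by overlap with H3K4me3, so this surplus describes the choice, as the unmatched one does, and tests nothing. In the authors' linear units the surplus changed little over 5 equal classes of CAST sites by DMC1. In the weakest class the median H3K4me3 was 16.8 at on-peak and 4.69 at off-peak sites, a difference of 12.1. In the second class it was 17.6 at on-peak and 7.50 at off-peak sites, and in the third it was 22.9 and 12.02. In the fourth it was 29.0 and 19.3, and in the strongest 40.1 at on-peak and 31.2 at off-peak sites. The differences in the other 4 classes were 10.1, 10.9, 9.67 and 8.90, so all 5 lay between 8.90 and 12.1. As a fold the surplus was 3.58 in the weakest class and 1.29 in the strongest. At HUM sites the corresponding differences were 10.5, 13.1, 15.6, 14.6 and 13.8. The on-peak share was spread over the DMC1 scale, with 7.60%, 8.85%, 8.04%, 7.84% and 6.63% of CAST sites in the classes taken weakest first.

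**Figure D3:**
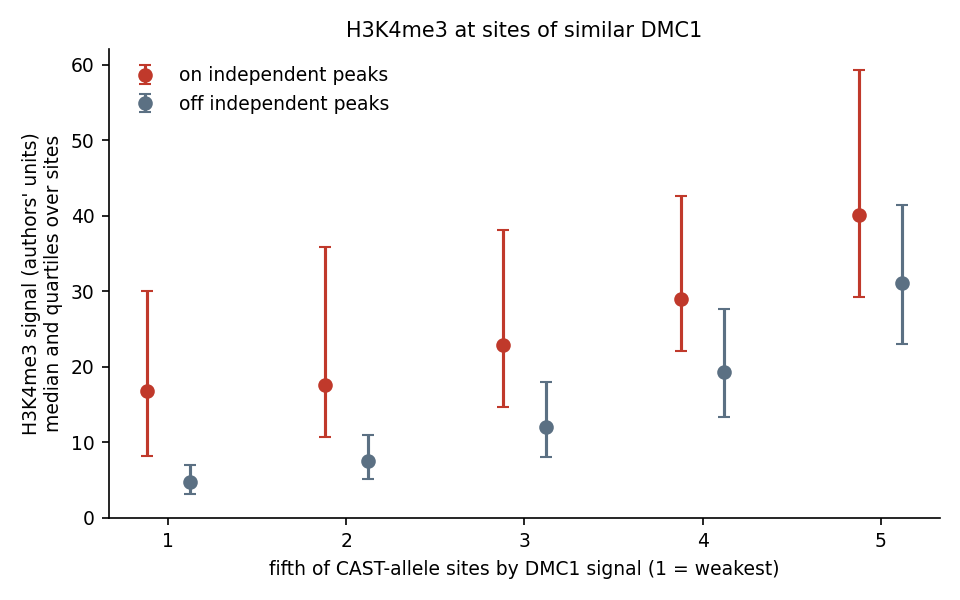
H3K4me3 signal in the authors' units (y axis; points are medians and bars the quartiles over sites) in 5 equal classes of CAST-allele autosomal sites by DMC1 signal (x axis, 1 weakest), on-peak sites left of off-peak sites. The on-peak medians lie 8.90 to 12.1 units above the off-peak medians.

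Because the animals are hybrids, each mark can be divided between homologues. The B6 share of a mark is its signal on the B6 homologue over that on both, and a site was called one-homologue when the share was under 0.1 or over 0.9. A DMC1 share was given at 907 on-peak sites (57 lack it) and an H3K4me3 share at 943 (21 lack it). By DMC1, on-peak sites were divided much like off-peak sites. One-homologue DMC1 was found at 33.7% of on-peak sites (306 of 907, exact interval 30.7% to 36.9%) and at 31.3% of off-peak sites (30.4% to 32.1%), against 33.6% of all autosomal sites. DMC1 was on the B6 homologue alone at 22.9% of on-peak sites and 21.2% of off-peak sites (19.3% of all autosomal sites), and on the CAST homologue alone at 10.8% and 10.1% (14.3% of all). By H3K4me3 the division differed. One-homologue H3K4me3 was found at 6.47% of on-peak sites (61 of 943, interval 4.98% to 8.23%) and at 15.2% of off-peak sites (14.5% to 15.9%), against 13.8% of all autosomal sites. The B6-only share by H3K4me3 was 4.67% on-peak and 11.4% off-peak (8.95% of all), and the CAST-only share 1.80% and 3.76% (4.86% of all). H3K4me3 peaks chose these sites, so this and the later contrasts of H3K4me3 shares are not independent of that choice.

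The disagreement was found where DMC1 was one-sided. At the 208 on-peak sites with a DMC1 B6 share over 0.9 and an H3K4me3 share, the median H3K4me3 share was 0.780 (quartiles 0.644 and 0.880), against 0.907 (0.839 and 0.954) at the 2251 off-peak sites of that kind. At the 98 on-peak sites with a DMC1 share under 0.1 it was 0.320 (0.199 and 0.478), against 0.134 (0.0722 and 0.233) at 1049 off-peak sites. Where DMC1 was on both homologues, with a share of 0.3 to 0.7, the median H3K4me3 shares were 0.520 on-peak and 0.512 off-peak. The H3K4me3 share of on-peak sites was thus nearer to 0.5 at both ends and alike in the middle. A straight line of H3K4me3 share on DMC1 share had a slope of 0.412 over 904 on-peak sites and 0.687 over 10491 off-peak sites, and the Spearman correlations were 0.651 and 0.847. DMC1 was further from 0.5 than H3K4me3 at 77.1% of on-peak and 77.6% of off-peak sites (78.5% of all autosomal sites), so how often DMC1 was the more one-sided mark was close in both kinds.

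**Figure D4:**
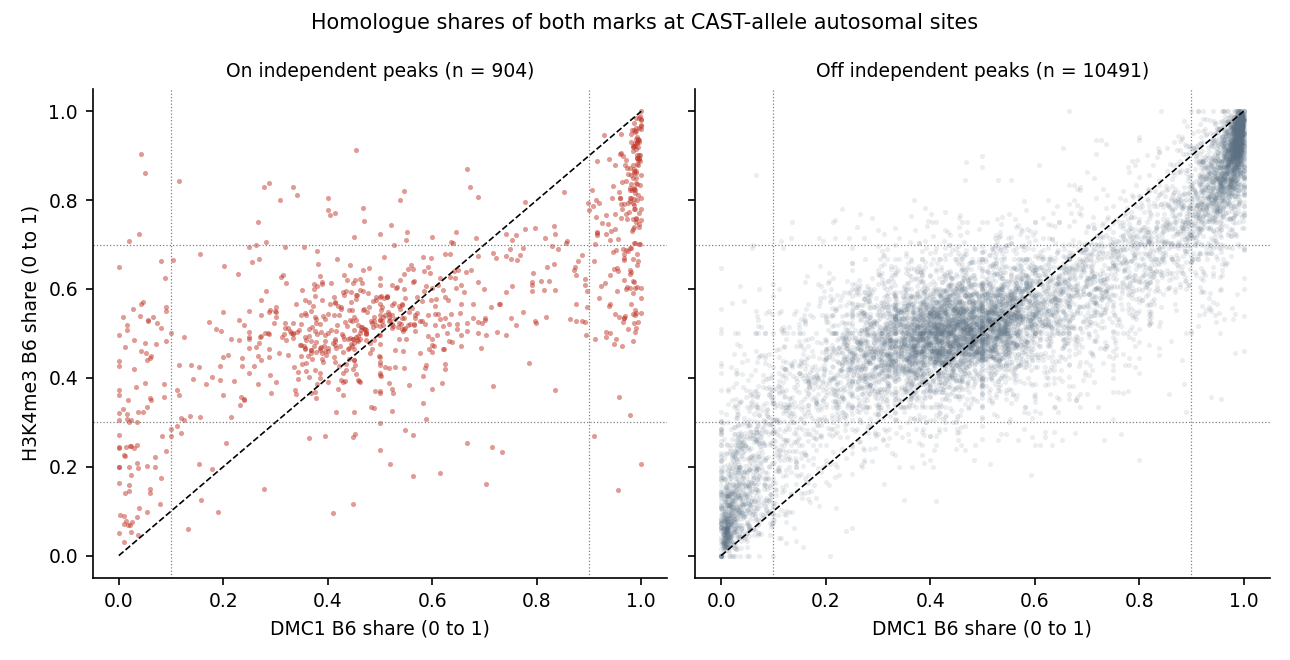
H3K4me3 B6 share (y axis) against DMC1 B6 share (x axis), both from 0 to 1, at the 904 on-peak (left) and 10491 off-peak (right) CAST-allele autosomal sites with both shares; dotted lines mark DMC1 shares of 0.1 and 0.9 and H3K4me3 shares of 0.3 and 0.7, and the dashed line equal shares. At one-sided DMC1 the on-peak points spread down to the middle of the H3K4me3 scale, with medians of 0.780 and 0.320, against 0.907 and 0.134 off-peak.

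Counted the other way round, 643 on-peak sites had an H3K4me3 share of 0.3 to 0.7 together with a DMC1 share. DMC1 was one-homologue at 117 of them, 18.2% (interval 15.3% to 21.4%), 66 on the B6 and 51 on the CAST homologue. Off-peak it was 233 of 6640, 3.51% (3.08% to 3.98%), against 6.28% of all autosomal sites with such an H3K4me3 share. At HUM sites the percentages were 20.04% on-peak and 5.61% off-peak, and at on-peak UNK sites 21.7%. Among sites with DMC1 above the on-peak median, which have more signal behind a share, it was 18.01% of 311 on-peak and 1.66% of 3426 off-peak sites. The H3K4me3 share behind these percentages belongs to the mark whose peaks chose the sites.

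The level of H3K4me3 went with its share in different ways. Among off-peak sites with a DMC1 share under 0.1, the median H3K4me3 share was 0.213, 0.130 and 0.0840 in 3 equal classes taken from least to most H3K4me3. At on-peak sites of that kind it was 0.304, 0.245 and 0.386 over 33, 32 and 33 sites. With a DMC1 share over 0.9 the classes had 0.768, 0.835 and 0.710 on-peak and 0.875, 0.926 and 0.924 off-peak. In the class with most H3K4me3, on-peak sites were therefore the furthest from their DMC1 share, while off-peak sites with DMC1 on the CAST homologue were the closest. One-sided sites had more DMC1 for their H3K4me3 in both groups, with median ratios of 7.08 (B6 homologue) and 4.21 (CAST homologue) against 3.18 for both homologues on-peak, and of 12.4 and 10.7 against 6.21 off-peak.

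The sites with the largest gaps between the shares show the pattern at single places, among on-peak sites above the median DMC1. Inside Akap12, which encodes an anchor of protein kinase A, a site lay at chromosome 10 position 4339883 (mm10). It had a DMC1 B6 share of 0.978 and an H3K4me3 B6 share of 0.317, so the shares lay on opposite sides of 0.5. Inside Ube4b, a ubiquitin ligase gene (chromosome 4, 149334292), the shares were 0.990 for DMC1 and 0.513 for H3K4me3. Inside Actrt3, an actin-related gene, 0.420 kb downstream of its start (chromosome 3, 30599450), they were 0.985 and 0.523. The other 2 of this kind lay 79.6 kb from Ly6f (0.993 and 0.525) and 14.4 kb from Xpnpep1, an aminopeptidase gene (0.836 and 0.372). In the opposite direction, the site with the widest gap lay inside Vwa8, which encodes a mitochondrial ATPase (chromosome 14, 78996852), with a DMC1 share of 0.0198 and an H3K4me3 share of 0.708. Sites inside Ptprd, a receptor phosphatase gene (chromosome 4, 77219166; 0.00752 for DMC1 and 0.538 for H3K4me3), and inside Atad3a, another mitochondrial ATPase gene (chromosome 4, 155741612; 0.0658 and 0.536), followed. A site 0.850 kb upstream of Api5, an inhibitor of apoptosis (chromosome 2, 94439036), had 0.0123 and 0.469, and one inside Cib2 (chromosome 9, 54557048) had 0.0284 and 0.484. In 8 of these 10 the H3K4me3 share was between 0.3 and 0.7 and DMC1 was one-homologue. The exceptions were the sites at Xpnpep1, with a DMC1 share under 0.9, and in Vwa8. The 10 were picked by the gap between the shares, so this count was in large part set by the choice and tests nothing.

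Among on-peak sites above the median DMC1 with both shares, 8 had a DMC1 share of exactly 1, and their H3K4me3 shares lay between 0.580 and 0.982, all above 0.5. The 3 described here are no more extreme than the other 5, being only the first of these equal shares when chromosome names are sorted as text. They lay 48.6 kb from Larp4b (chromosome 13, 9223090; DMC1 85.0, H3K4me3 share 0.805), 36.4 kb from Spryd7 (chromosome 14, 61495431; DMC1 97.2, H3K4me3 share 0.966) and 106 kb from Pced1b (chromosome 15, 97492124; DMC1 436, H3K4me3 share 0.982). The lowest DMC1 shares were 0 inside Csnk1g3, a casein kinase gene (chromosome 18, 53876743; DMC1 97.9, H3K4me3 share 0.2), 0 inside Sclt1, a centriole gene (chromosome 3, 41663402; DMC1 86.7, H3K4me3 share 0.271), and 0.00186 inside Herc2, a ubiquitin ligase gene (chromosome 7, 56084422; DMC1 434, H3K4me3 share 0.0909). The other 5 sites with a DMC1 share of 1 were nearest to Tle7 (H3K4me3 share 0.580), Aak1 (0.602), Mgll (0.756), Ints13 (0.959) and Stim2 (0.980).

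On-peak sites lay closer to gene starts than off-peak sites, but most were not at one. The starts used here were those of 16457 of 20665 autosomal protein-coding genes, on 18 of the 19 autosomes, so the nearest start used can be that of a gene further off. These autosomes hold 934 on-peak sites; the 30 on chromosome 18 were left out. Within 1 kb of such a start lay 46 on-peak sites, 4.93% (interval 3.63% to 6.51%), and 62 of 10936 off-peak sites, 0.567% (0.435% to 0.726%), against 1.09% of all autosomal sites. By either annotated edge of any protein-coding gene, 8.40% of on-peak and 2.56% of off-peak sites lay within 1 kb. Within 10 kb of a start lay 36.5% of on-peak and 12.7% of off-peak sites (15.8% of all). The median distance was 20.65 kb on-peak and 63.8 kb off-peak. On-peak HUM sites were close to on-peak CAST sites in this, with 5.86% within 1 kb (interval 4.18% to 7.95%) and a median of 17.1 kb, while of on-peak UNK sites 13.9% (10.4% to 17.97%) lay within 1 kb. The side of the start was also counted. Within 1 kb, 19 of 46 on-peak and 34 of 62 off-peak sites were downstream, at 1 to 2 kb 48 of 78 (61.5%) and 35 of 91 (38.5%), at 2 to 5 kb 88 of 136 (64.7%) and 216 of 463 (46.7%), and at 5 to 10 kb 46 of 81 and 448 of 778. In the classes beyond 10 kb it was 57.5% to 63.0% on-peak and 58.4% to 60.1% off-peak, so on-peak sites at 1 to 5 kb were close to that level. At HUM sites it was 72.6% on-peak and 34.0% off-peak at 1 to 2 kb, and 76.2% and 55.2% at 2 to 5 kb. Inside protein-coding genes lay 57.7% of on-peak sites (54.5% to 60.8%) and 52.1% of off-peak sites (51.2% to 53.0%), against 53.9% of all autosomal sites. The on-peak sites inside genes were scattered over 541 genes, of which 526 held 1 site and 15 held 2.

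The ratio was lowest at the on-peak sites nearest to starts. It had medians of 2.18 within 1 kb and 2.01 from 1 to 2 kb at on-peak sites, and of 7.01 and 7.20 at off-peak sites. From 2 to 5 kb it was 4.09 on-peak and 6.76 off-peak, and beyond 50 kb 3.23 and 7.04. Within 1 kb, H3K4me3 had a median of 47.3 at on-peak sites and 17.02 at off-peak sites, and DMC1 of 104 and 116. Across these 46 on-peak sites the Spearman correlation of DMC1 with H3K4me3 was -0.000185, against 0.772 across the 62 off-peak sites. On-peak it was 0.133 from 1 to 2 kb, 0.368 from 2 to 5 kb and 0.585 from 5 to 10 kb. Further out it was lower again on-peak, at 0.458 from 10 to 20 kb, 0.473 from 20 to 50 kb and 0.488 beyond 50 kb. Off-peak the correlation stayed between 0.753 and 0.804 at all distances. Among one-homologue DMC1 sites within 2 kb of a start, H3K4me3 was on both homologues (share 0.3 to 0.7) at 20 of 37 on-peak sites, 54.1% (36.9% to 70.5%), and at 3 of 51 off-peak sites, 5.88% (1.23% to 16.2%). From 2 to 10 kb it was 16 of 51 on-peak sites, 31.4% (19.1% to 45.9%), and 7.69% of 351 off-peak sites. Over 10 kb from a start it was 37.7% of 204 on-peak and 7.10% of 2759 off-peak sites.

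**Figure D5:**
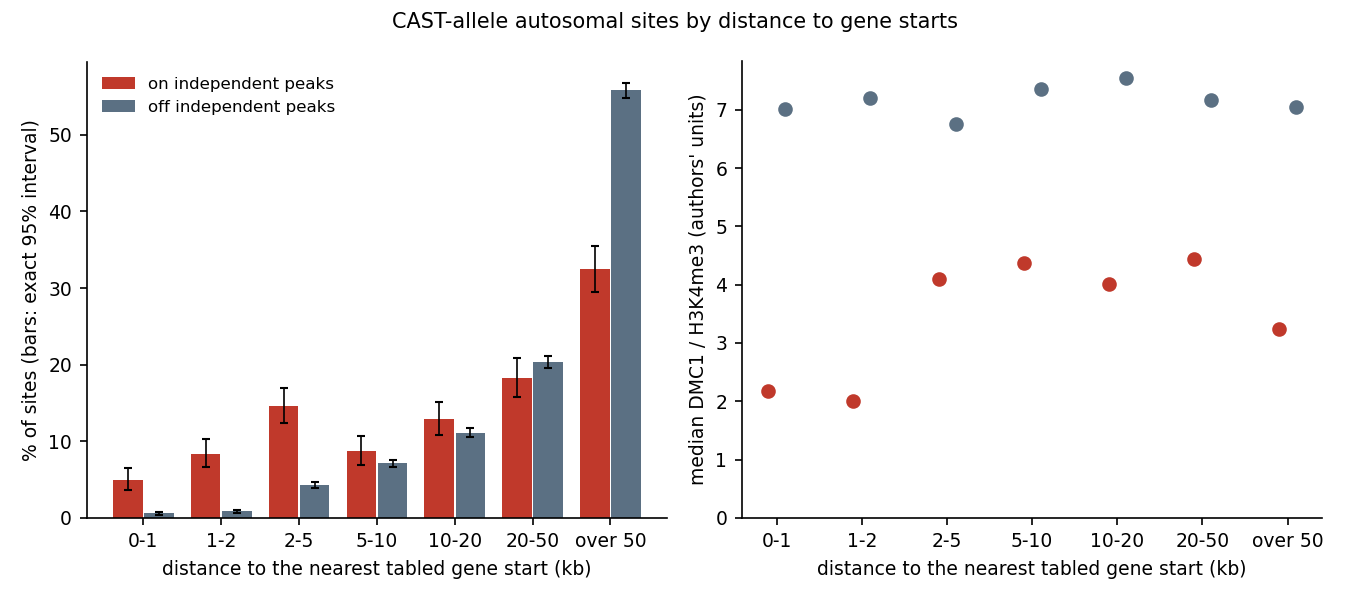
Left, percent of on-peak and off-peak CAST-allele sites (y axis, bars with exact 95% intervals) by distance to the nearest tabled gene start in kb (x axis). Right, the median ratio of DMC1 to H3K4me3 in the authors' units at the same distances, which is 2.18 and 2.01 in the nearest on-peak classes and 6.76 to 7.55 in every off-peak class.

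Promoter windows with an on-peak site within 1 kb of their start numbered 53, of 47 genes. They held a median of 8 CG (quartiles 5 and 19), against 3 (1 and 5) in 64 windows with an off-peak site and 14 (4 and 25) in all 20085 tabled autosomal windows. The GC-box letters GGGCGG, searched on both strands, were in 41.5% of the on-peak windows, 6.25% of the off-peak windows and 47.0% of all. The letters CCAAT were in 35.8%, 32.8% and 38.1%, and TATAAA in 13.2%, 17.2% and 12.7%, in the same order. Matches were counted whether or not 2 words overlapped, and a match says only that the letters are present.

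Few genes of the lists chosen for this tissue had an on-peak site at their start. Over all tabled protein-coding genes, 0.286% had one within 1 kb and 0.772% within 2 kb. None was found within 2 kb of the 23 tabled genes of meiotic break formation and repair, the 13 of the chromosome axis and synaptonemal complex, the 46 of cytosolic ribosomal proteins, the 6 of Sertoli and Leydig cells or the 22 Hox genes. Of the 11 tabled spermatid genes Tssk2 had one (above), and of 29 proteasome genes Psma3, a subunit of the core particle, had one 1985 bases upstream of its start (chromosome 12, 70972638), with DMC1 11.6 and H3K4me3 48.3. Where a list had such a gene it was 1 gene only, and the lists are short, so these counts say nothing about any of them.

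On-peak sites stood about as far from the next DMC1 site as off-peak sites, at a median of 25.3 kb and 29.9 kb. Another site lay within 5 kb of 89 on-peak sites (9.23%) and of 1062 off-peak sites (9.31%). That neighbour was itself on a PRDM9-independent peak at 29 of the 89 (32.6%) and at 49 of the 1062 (4.61%), against 8.68% of all autosomal sites. Such an overlap chose the on-peak sites, and whether both sites of a pair lay on the same peak was not tested. The neighbour was a HUM site at 40 of the 89, a CAST site at 36 and of class UNK or KO at 13, against 359, 605 and 98 of the 1062. Of all 23631 autosomal sites 12372 were CAST sites, and 676 on-peak and 8605 off-peak sites were HUM sites. Whether the classes of neighbours differ between on-peak and off-peak sites was not tested. No neighbour had the same H3K4me3 value, and whether such pairs share reads was not tested.

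The strongest on-peak site lay 23.2 kb from Tpd52, a gene of vesicle traffic (chromosome 3, 9028609), with DMC1 1002 and H3K4me3 65.2, and was the thirteenth strongest autosomal site. It was used on both homologues, with B6 shares of 0.523 for DMC1 and 0.542 for H3K4me3. The second lay inside Irak1bp1, 2.03 kb downstream of its start (chromosome 9, 82831834; DMC1 928, H3K4me3 54.5), and the third inside Arhgap15, a GTPase-activating gene (chromosome 2, 44328950; DMC1 925, H3K4me3 62.6). The fourth was 11.2 kb from Myom2, a gene of the muscle sarcomere (chromosome 8, 15046451), with DMC1 885 on the B6 homologue (share 0.991) and an H3K4me3 share of 0.679. The fifth, inside Lrrc17 (chromosome 5, 21573773; DMC1 870), had 0.995 for DMC1 and 0.770 for H3K4me3. The sixth lay inside Tmem63c, 0.379 kb downstream of a start (chromosome 12, 87021719), with DMC1 840, H3K4me3 133 and shares of 0.941 and 0.631. Inside Zmynd8, which encodes a reader of histone marks (chromosome 2, 165882829; DMC1 767), and Alg9, a mannosyltransferase gene of the endoplasmic reticulum (chromosome 9, 50808189; DMC1 749), lay the last 2 of these 8. In 6 of the 8 the DMC1 share was over 0.8, and in each of those 6 the H3K4me3 share was closer to 0.5.

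The 5 on-peak sites with the most H3K4me3 had DMC1 on both sides of the on-peak median of 73.1, with 3 above it and 2 below. The most was at a site inside Dnaja1, a co-chaperone gene, 0.893 kb downstream of its start (chromosome 4, 40723823), with H3K4me3 411, the highest value of the whole table, and DMC1 457. Its DMC1 was on the B6 homologue (share 0.990) and its H3K4me3 on both (0.545). It was followed by sites inside Gtsf2 (chromosome 15, 103446063; H3K4me3 299, DMC1 39.2), inside Snw1, a splicing factor gene (chromosome 12, 87471325; H3K4me3 286, DMC1 215), inside 1110059G10Rik (chromosome 9, 122950156; H3K4me3 254, DMC1 137) and upstream of Tssk2 (chromosome 16, 17898450; H3K4me3 179, DMC1 25.2). All 5 had H3K4me3 shares between 0.467 and 0.545.

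Among on-peak sites above the median of the summed ranks of both marks, the lowest ratio was 0.128 inside Cfap298, a gene of ciliary dynein assembly, 1.22 kb downstream of its start (chromosome 16, 90933629; DMC1 20.4, H3K4me3 159.6). The sites at Gtsf2 (0.131) and Tssk2 (0.141) came next, then one inside Meig1, a gene of spermatid maturation (chromosome 2, 3419668; ratio 0.154, DMC1 23.1, H3K4me3 150.4), and one 8.17 kb from Gm45095 (chromosome 7, 35065811; ratio 0.164). The highest ratios were of another order, at 38.4 inside C1qtnf12, an adipokine gene (chromosome 4, 155965589; DMC1 454, H3K4me3 11.8), 37.4 at the site in Lrrc17 and 33.4 inside Dst, a cytoskeletal linker gene (chromosome 1, 34214077; DMC1 708, H3K4me3 21.2). They were followed by 33.2 at a site 31.8 kb from Podxl (chromosome 6, 31595776) and 28.7 at one 282 kb from Dusp4, a phosphatase of MAP kinases (chromosome 8, 34525637). None of these 5 was within 10 kb of a tabled start, while 4 of the 5 lowest were within 2.4 kb of one. Among all on-peak sites with tabled starts, 13.3% lay within 2 kb of one, 27.8% within 5 kb and 36.5% within 10 kb. The site inside C1qtnf12 was measured to a start of another gene, Ube2j2, at 21.4 kb. With 5 sites at each end, the contrast in distance was not tested. The sites at both ends passed the rule on summed ranks through 1 mark, so the ends of the ratio were in part set by that rule.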

How the data were processed

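BWA and the build mm10 are named in the submitters' processing notes, with version 0.7.15 for H3K4me3 and none for DMC1. Per the file headers, the DMC1 signal is the intensity that the authors' peak caller estimated, and the H3K4me3 signal is their estimate at the same site, from raw data credited to Li and colleagues; no source says whether this library of the series is meant. The fractions are, per the file headers, signal on the B6 homologue over signal on both. How the deposited signals were scaled to depth, how peaks without PRDM9 were defined and how many reads lie behind a value is not stated in any source used. The MNase library was not used here.

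Signals were compared as log2 values with no pseudocount, since neither holds a 0. Matched differences are differences of medians within 20 equal bins (3 on a single autosome), for bins with at least 5 sites of both kinds, weighted by the smaller kind. The calculation was run on simulated shifts between groups drawn at random, which had alike H3K4me3. That run cannot show how well the match works where H3K4me3 differs between the groups, as it does here. Gene positions, starts and promoter sequences are RefSeq's for GRCm38.p6. Fold and difference values are on-peak against off-peak. Sites were named as the 8 highest in DMC1, the 5 highest in H3K4me3, the 5 highest and lowest ratios among sites above the median of summed ranks, and, among sites above the median DMC1 with both shares, the 3 highest and lowest DMC1 shares and the 5 largest gaps between shares each way; sites inside promoter windows were added. The sites and lists were chosen with earlier results of these data known. The match on DMC1, the share by distance, the neighbours and the counts of genes were chosen after seeing the data. Python 3.11.15, pandas 2.3.3 and scipy 1.17.1 were used.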

Additional observations from a re-analysis of the deposited data

How the results depend on the processing

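No paired analysis was possible because there was 1 library per assay. An alternative counted as moving a difference when the change was more than the SD over single autosomes. It counted as moving a percentage when that left its exact interval. Of 249 alternatives 233 did neither, but most of these only left out 1 autosome and so kept most sites. The 15 that moved and the 1 that reversed were all among the other alternatives. Leaving out each autosome in turn gave -0.21 to -0.12 for log2 DMC1, 1.003 to 1.06 for log2 H3K4me3, -0.97 to -0.89 for the log2 ratio, -1.13 to -1.05 for DMC1 at matched H3K4me3, 1.01 to 1.06 for H3K4me3 at matched DMC1, 0.393 to 0.426 for the Spearman correlation and 17.8% to 18.7% for one-homologue DMC1 among on-peak sites with an H3K4me3 share of 0.3 to 0.7. With only H3K4me3 values that occur once in the table, which kept 604 on-peak sites (37.3% of on-peak and 63.3% of off-peak values are repeated), log2 DMC1 differed by -0.89, log2 H3K4me3 by 0.54 and the correlation was 0.25; the cause was not tested. With only sites within 1 kb of a gene start (46 on-peak), log2 H3K4me3 differed by 1.48, the log2 ratio by -1.68, and the correlation turned to -0.000185. The matched differences did not move in any of 27 alternatives each, between -1.28 and -1.01 for DMC1 and between 0.96 and 1.07 for H3K4me3.

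Percentages followed the limits set. One-homologue on-peak sites were 40.9% by DMC1 and 15.7% by H3K4me3 with limits of 0.2 and 0.8, 26.0% and 2.01% with 0.05 and 0.95, and 42.8% and 11.1% when weighted by DMC1. Within 500 bases of a start lay 2.14% and within 2 kb 13.3% of on-peak sites. DMC1 was further from 0.5 than H3K4me3 at 89.5% of the 285 on-peak sites with an H3K4me3 share of 0.45 to 0.55, where the choice favours it. Genes of the lists with an on-peak site were 1 within 1 kb and 2 within 2 kb. Reads per site are unknown, so the precision of a single share is too.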

Other observations

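Outside the set described, 25 CAST-allele sites on PRDM9-independent peaks lay on the X, which has no homologue in males over most of its length. Their median H3K4me3 was 24.4, against 12.1 at 511 off-peak X sites of the CAST allele, and their median DMC1 was 152, against 99.8. The median ratio was 8.88 on-peak and 9.51 off-peak, and the Spearman correlation of DMC1 with H3K4me3 was 0.619 and 0.822. The H3K4me3 B6 share was 1 at 17 of the 18 on-peak X sites that have one. The exception lay inside Mid1 near the end of the X (position 169782168), with an H3K4me3 share of 0.600 and a DMC1 share of 0.130. The strongest of the 25 lay 71.3 kb from Tsx (position 103495932; DMC1 1235, H3K4me3 41.8), 22.3 kb from Nlgn3 (101343634; DMC1 852, H3K4me3 88.97) and 3.85 kb from Ripply1 (139775827; DMC1 753, H3K4me3 22.0).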
